A study of Mus musculus with 5 samples.

Results

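Rab GTPases are small GTP-binding proteins that direct membrane traffic, and their transcripts were compared between optic nerves cultured with a low and a high concentration of LY294002, an inhibitor of PI3K. A gene was taken as a member when its symbol in the platform annotation was Rab followed by a number and at most a letter and a digit. This rule found 59 genes with 132 probe sets, of 18193 genes with 34945 probe sets that name a single gene. Optic nerves of C57BL/6 mice aged P35 to P45 had been kept as organotypic cultures for 3 days, and every array was of such LY294002-treated nerve tissue. The labels give 0.5 µM for the 3 arrays of the low concentration (L-LY29) and 50 µM for the 2 arrays of the high concentration (H-LY29). The study's text names a higher L-LY29 dose for adult nerves than the labels do, and it was not settled here which of them applies. The titles spell the compound LY294002 and the treatment entries LY295002, taken here as the same agent. Saline cultures were not analysed here, so every difference is the L-LY29 mean less the H-LY29 mean, in log2 units of the deposited signals. The study's methods give numbers of nerves and mice for the transcriptomic work but not their division among the arrays, and p-values here reflect nothing but how far these arrays scatter. Their number limits the precision.

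A Rab protein is active when bound to GTP and inactive when bound to GDP. Guanine nucleotide exchange factors (GEFs) load GTP, GTPase-activating proteins (GAPs) speed its hydrolysis, and effectors such as tethers and motor adaptors bind the active form. Each Rab is anchored in membranes by prenyl groups, which Rab geranylgeranyl transferase adds, and is drawn back into the cytosol by GDP dissociation inhibitor (GDI). Different Rabs mark different compartments. The lipid PI3P, made by the class III PI3K, is a further label of early endosomes, where it acts together with Rab5. In oligodendrocytes, Rab-dependent traffic carries membrane and proteins to and from the myelin sheath.

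The arrays of the 2 doses stood apart beyond the Rab genes. Over the 132 Rab probe sets, Pearson correlations were 0.993 to 0.996 within a dose and 0.898 to 0.908 between doses, given as a description since the points share their arrays. The bacterial poly-A control RNAs averaged 9.97 to 10.45 on the L-LY29 arrays and 3.17 on both H-LY29 arrays. The *Gapdh* 3′ probe set less the 5′ probe set was −0.15 to −0.092 in L-LY29, whereas it was 0.65 to 0.73 in H-LY29. Both measures split fully by dose. In every difference given here, dose cannot be told apart from how the RNA and arrays were prepared. Of the Rab probe sets, 11 had the same value to the last digit on all 3 L-LY29 arrays and 4 on both H-LY29 arrays. Among the tested Rab genes, 5 were tied so in L-LY29 (*Rab14*, *Rab15*, *Rab1b*, *Rab2a* and *Rab5b*). Such ties add no scatter, so the standard errors and p-values of these genes may be too small. The tissue label was borne out by oligodendrocyte markers, whose 6 measured members averaged 12.37 to 12.61 on the 5 arrays. Of these 6, 4 were higher in L-LY29, 1 was lower (*Mog*) and 1 did not pass (*Sox10*). Means of other cell type markers also differed between the doses. The mean over 6 fibroblast markers was 7.52 to 8.23 at the low dose and 10.85 to 11.17 at the high dose, with all 6 lower in L-LY29. That over 7 astrocyte markers was 9.48 to 10.05 and 11.01 to 11.12. Of the astrocyte markers, 4 were lower, 1 was higher (*S100b*) and 2 did not pass. Means were 9.07 to 9.11 and 8.08 to 8.34 for 6 microglia markers, 7.05 to 7.42 and 6.16 to 6.29 for 5 endothelial markers, and 7.08 to 8.94 and 4.43 to 5.28 for 8 epithelial markers. Of the microglia markers 5 were higher and 1 lower (*Tmem119*). Of the endothelial markers 3 were higher and 2 did not pass, and of the epithelial ones 5 and 3. Over all genes tested, 27.1% were higher and 46.6% lower. The part of these marker shifts in the Rab values was not tested, and in whole tissue fewer cells of a type and less RNA per cell cannot be told apart.

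Rab genes differed between the doses in both directions. Of the 59, 52 were bright enough to be tested as genes, each represented by its brightest probe set. Of these, 19 were higher in L-LY29, 18 lower and 15 short of the threshold (limma, Benjamini-Hochberg adjusted p under 0.05 over all genes tested). That is 71.2% of the tested Rab genes, against 73.8% of all 12935 genes tested. The share higher was 36.5%, where 27.1% of all genes were higher, and the share lower was 34.6%, where 46.6% of all genes were lower. The median difference of the Rab genes was 0.061 log2 units, and that of all genes was −0.26. The arrays of the doses did not overlap for 41 of the 52 genes, or 78.8%, which is below the 83.1% over all genes. Quantile normalization gave 27 higher and 14 lower, and equal array medians gave 26 and 15. These scalings raised the share of higher among the called Rab genes from 51.4% to 65.9% and 63.4%, and that among all called genes from 36.8% to 52.1% and 47.2%. They moved the median of all genes to 0.063 and −0.051. Of the 15 genes short of the threshold, *Rab1b*, *Rab39b*, *Rab5b*, *Rab9* and *Rab9b* were called higher under both scalings. *Rab3b*, *Rab24*, *Rab37* and *Rab43* were so after quantile normalization only, and *Rab5c* and *Rab8b* with equal array medians only.

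**Figure D1:**
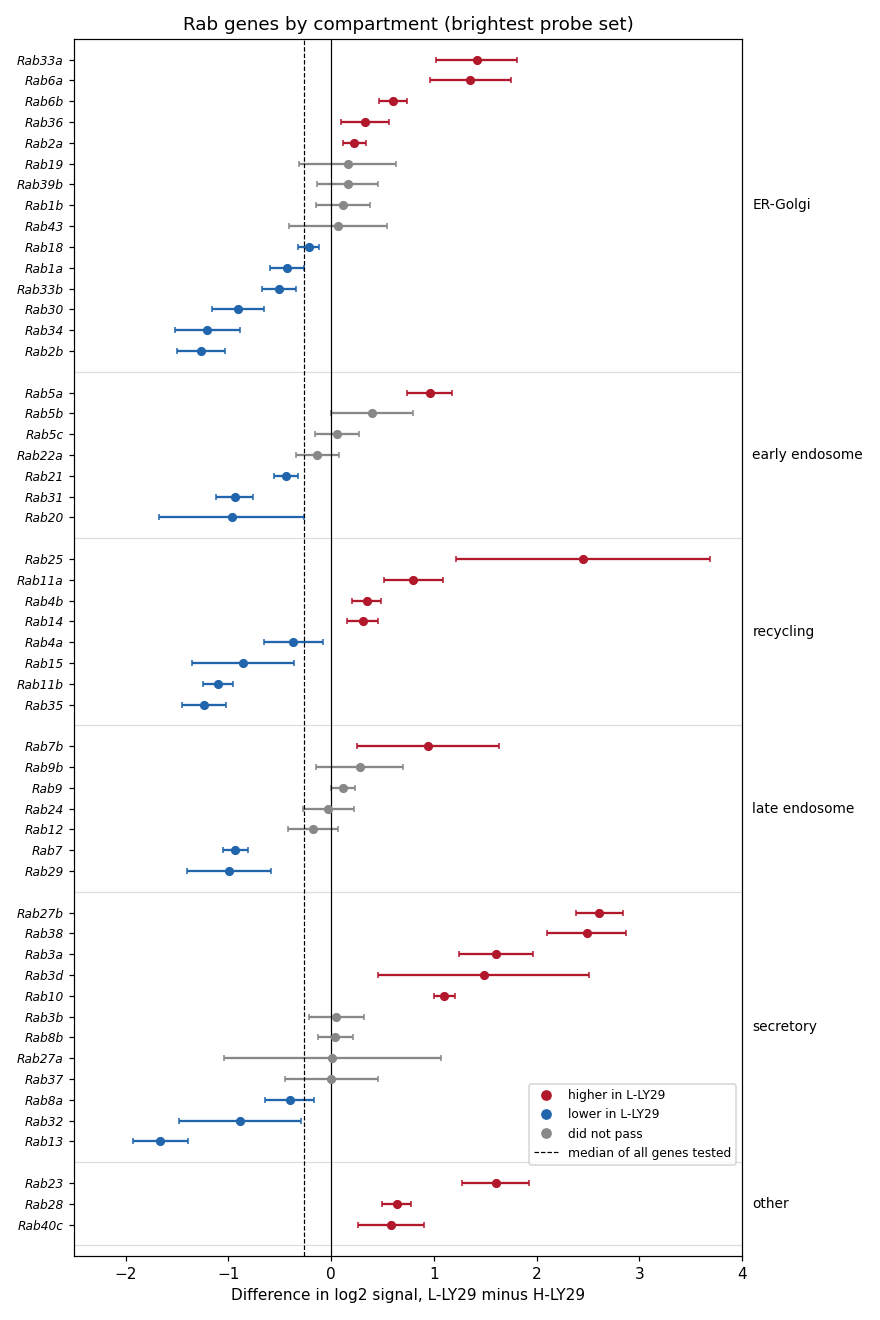
Difference in log2 signal, L-LY29 minus H-LY29, of the 52 tested Rab genes (points, with bars for the 95% confidence interval of the limma fit), grouped by compartment, with the median of all genes tested as a dashed line. Points lie on both sides of 0 in the ER-Golgi, endosomal and secretory groups, from −1.66 for *Rab13* to 2.61 for *Rab27b*, whose H-LY29 signals lie in the range of the poly-A controls.

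Among the 15 tested Rab genes of the ER and Golgi, 5 were higher in L-LY29, 6 lower and 4 short of the threshold, and the median difference was 0.12. *Rab6a*, which acts in transport within and from the Golgi, was higher. Its signal was 12.58, 12.62 and 12.56 on the L-LY29 arrays and 10.98 and 11.49 on the H-LY29 arrays. The L-LY29 arrays lay close together above both H-LY29 arrays, with a difference of 1.36 (standard error 0.15, adjusted p = 9.26e-04). Its 2 dimmer probe sets were higher by 1.59 and 2.18. *Rab6b*, its paralog of neural tissue, gave 11.80, 11.83 and 11.74 in L-LY29 and 11.14 and 11.23 in H-LY29. It too was higher, by 0.60 (standard error 0.052, adjusted p = 3.72e-04), as were 2 of its other 3 probe sets, while the last was at −0.0064 and did not pass. *Rab33a*, a Golgi Rab, was higher by 1.42, at 9.11, 8.85 and 8.92 in L-LY29 and 7.74 and 7.34 in H-LY29. *Rab36* was higher by 0.33, a call that ended without any of the 3 L-LY29 arrays, at adjusted p = 0.0554 to 0.0725.

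*Rab1a*, which serves transport from the ER to the Golgi, was lower in L-LY29. It gave 11.48, 11.37 and 11.48 in L-LY29 and 11.81 and 11.94 in H-LY29. The shift was −0.43 (standard error 0.063, adjusted p = 0.00236), and a dimmer probe set was lower by a larger amount, −1.42. The paralog *Rab1b* was at 0.12, with a 95% interval of −0.15 to 0.38, and did not pass. Without H-LY29 replicate 1 it was at 0.26. With its L-LY29 values tied and a single H-LY29 array left, that fit holds no scatter of this gene. *Rab34*, a Golgi Rab also linked to cilia, was lower by −1.20, at 7.98, 8.14 and 8.30 in L-LY29 and 9.42 and 9.27 in H-LY29, and its other probe set was lower too, by −0.55. *Rab33b*, which binds an autophagy complex at the Golgi, was at −0.51 and *Rab30* at −0.91. The second probe set of *Rab30* was lower by −4.27, at 3.32, 3.57 and 3.54 in L-LY29. Those signals lie within the poly-A range, since poly-A probe sets reached means of 4.14 in H-LY29, so this size is not read as a fold. *Rab2a*, *Rab2b* and *Rab18* passed the test at 0.23, −1.26 and −0.22, but their probe sets were called in both directions, and the *Rab18* call ended with equal array medians (−0.0044, adjusted p = 0.935). *Rab19*, *Rab39b* and *Rab43* did not pass, at 0.16, 0.16 and 0.064, though a dimmer probe set of *Rab43* was higher by 0.64.

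Of the Rab5 subfamily at early endosomes, *Rab5a* was called higher in L-LY29, and differences among its members were not tested. *Rab5a*, which drives fusion of early endosomes and recruits the class III PI3K, gave 11.83, 11.79 and 11.79 in L-LY29 and 10.71 and 10.98 in H-LY29. All L-LY29 arrays lay above both H-LY29 arrays, with a difference of 0.96 (standard error 0.086, adjusted p = 4.13e-04) on its single probe set. *Rab5b* was at 0.40 (95% interval −0.0059 to 0.80) and *Rab5c* at 0.058 (−0.15 to 0.27), and neither passed. *Rab5b* was called higher under both scalings (0.88 and 0.61) and as the mean of its probe sets (0.30). It was at 0.63 without H-LY29 replicate 1 and at 0.17 without replicate 2. With its L-LY29 values tied and a single H-LY29 array left, those fits hold no scatter of this gene. For *Rab5c* the result rested on single H-LY29 arrays: it was at 0.18 (adjusted p = 0.00438) without H-LY29 replicate 1 and at −0.067 (adjusted p = 0.0229) without replicate 2. *Rab31*, which carries cargo between the trans-Golgi network and endosomes, was lower in L-LY29. It gave 11.12, 10.97 and 11.04 in L-LY29 and 12.05 and 11.91 in H-LY29, a difference of −0.94 (standard error 0.071, adjusted p = 2.38e-04), and its second probe set was lower by −1.89. *Rab20* was at −0.97, a call that ended after quantile normalization or without either H-LY29 array (adjusted p = 0.154 to 0.189). *Rab21*, an integrin-binding endosomal Rab, was at −0.44, with its second probe set higher. *Rab22a* did not pass, at −0.13, though it was called lower as the mean of its probe sets (−0.83) and on its second brightest (−2.95). A further probe set of *Rab22a* was higher by 0.52. Without H-LY29 replicate 1 the difference of *Rab22a* was −0.24. Of the 7 early endosomal genes, 1 was higher, 3 lower and 3 short of the threshold, with a median of −0.13.

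All 8 tested Rabs of recycling endosomes passed the test, where 73.8% of all genes did, with 4 higher and 4 lower in L-LY29 and a median of −0.029. *Rab11a* and *Rab11b*, closely related Rabs of the recycling endosome, differed in opposite directions. *Rab11a* gave 11.15, 10.88 and 10.96 in L-LY29 and 10.09 and 10.30 in H-LY29. It was higher by 0.80 (standard error 0.11, adjusted p = 0.00183), and its second probe set was at 0.23 and did not pass. *Rab11b* gave 10.04, 10.04 and 9.93 in L-LY29 and 11.09 and 11.12 in H-LY29. It was lower on each of its 3 probe sets, by −1.10 (standard error 0.056, adjusted p = 8.76e-05) on the brightest and by −0.57 and −2.89 on the others. The probe set at −2.89 read 4.39, 4.16 and 4.16 in L-LY29, near the poly-A limit of 4.14, so this size is not read as a fold. *Rab4a* and *Rab4b*, of fast recycling, were at −0.37 and 0.35. The *Rab4a* call ended with either scaling and without either H-LY29 array, at adjusted p = 0.131 to 0.266.

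*Rab35*, which returns receptors to the plasma membrane and is known for exosome release from oligodendrocytes, was lower in L-LY29. Its single probe set gave 7.77, 7.72 and 7.89 in L-LY29 and 9.03 on both H-LY29 arrays, a difference of −1.24 (standard error 0.083, adjusted p = 1.73e-04). *Rab15*, which slows recycling from early endosomes, was at −0.85, with a signal of 7.30 to the last digit on all L-LY29 arrays and of 8.45 and 7.84 in H-LY29. Its call ended after quantile normalization (−0.35, adjusted p = 0.159). *Rab25*, an epithelial relative of Rab11, was higher by 2.45 (standard error 0.48, adjusted p = 0.00680). Its signal was 7.63, 6.07 and 6.49 on L-LY29 replicates 1, 2 and 3 and 4.35 and 4.20 in H-LY29. The H-LY29 mean of 4.28 lay under the filter of 4.77, so *Rab25* was tested only because of its L-LY29 signals. It also lay near the poly-A limit of 4.14, so 2.45 is not read as a fold. On the same arrays the mean over the epithelial markers was 8.94, 7.08 and 7.91 in L-LY29 and 5.28 and 4.43 in H-LY29. Among these markers *Krt6b*, *Psca*, *Krt12*, *Krt5* and *Epcam* were higher and 3 did not pass. The part of epithelium in the *Rab25* difference was not tested. Without either H-LY29 array the *Rab25* call ended (adjusted p = 0.0785 and 0.0882). *Rab14*, of endosomes and the Golgi, was called at 0.31, with probe sets in both directions.

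**Figure D2:**
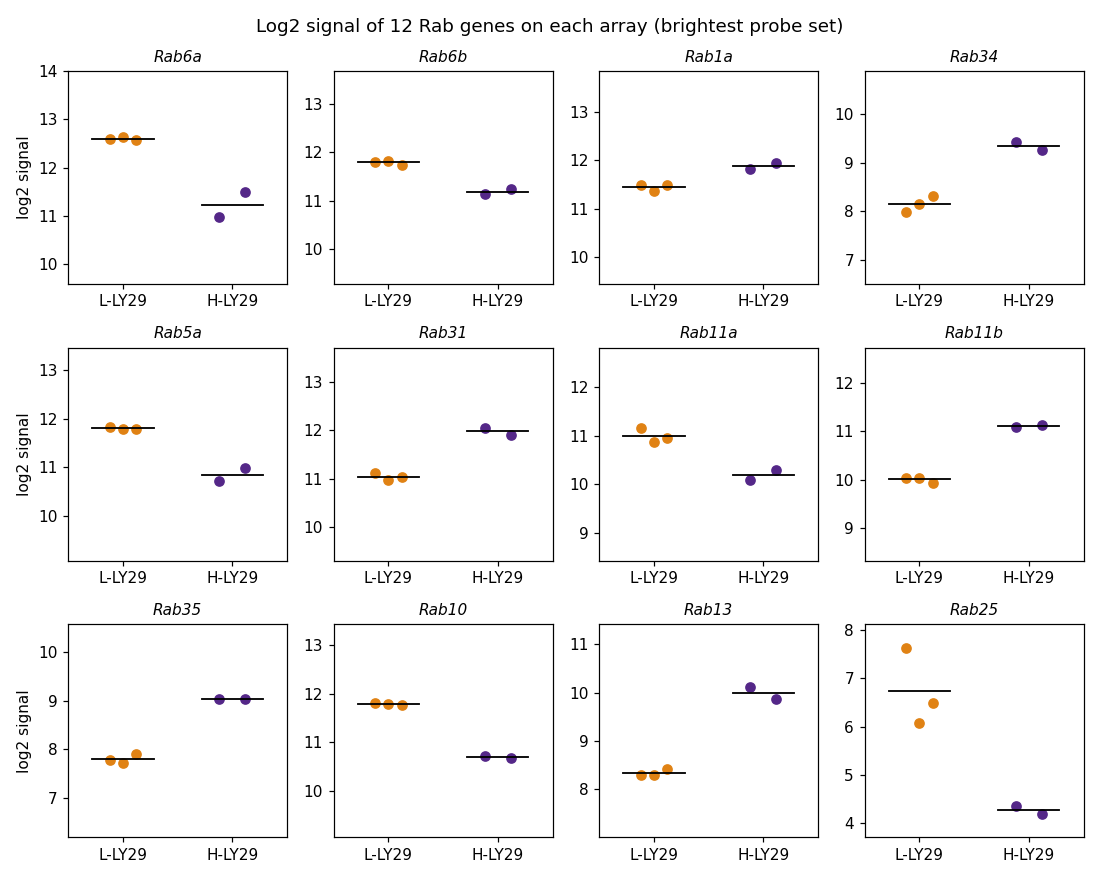
Log2 signal of 12 Rab genes by array, 3 of L-LY29 and 2 of H-LY29 (points), with horizontal lines at the dose means; every panel spans the same height in log2 units. *Rab6a*, *Rab6b*, *Rab5a*, *Rab11a*, *Rab10* and *Rab25* lie higher in L-LY29, *Rab1a*, *Rab34*, *Rab31*, *Rab11b*, *Rab35* and *Rab13* lie lower, and *Rab25* ranges from 6.07 to 7.63 between the L-LY29 arrays.

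The promoters of the paralogs that differed the same way (*Rab6a* and *Rab6b*) and in opposite directions (*Rab11a* and *Rab11b*) are shown by the 100 bases before the RefSeq transcript start, 5′ to 3′ on the strand of the gene, in build GRCm38.p6. Capitals mark the motifs that were searched on both strands: a CCAAT box (CCAAT), a GC box (GGGCGG), an E-box (CACGTG), a FoxO motif (GTAAACA) and a TATA box (TATAAA). None of the motifs contains another. The stretches are chr7:100607486-100607585 (+) for *Rab6a*, chr9:103111974-103112073 (+) for *Rab6b*, chr9:64737757-64737856 (−) for *Rab11a* and chr17:33760487-33760586 (−) for *Rab11b*.
Rab6a: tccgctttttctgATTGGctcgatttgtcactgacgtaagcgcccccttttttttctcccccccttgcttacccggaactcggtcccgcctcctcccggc
Rab6b: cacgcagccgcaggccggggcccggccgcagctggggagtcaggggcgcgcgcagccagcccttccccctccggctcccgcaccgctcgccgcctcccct
Rab11a: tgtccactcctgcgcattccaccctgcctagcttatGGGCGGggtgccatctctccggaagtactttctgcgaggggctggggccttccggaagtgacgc
Rab11b: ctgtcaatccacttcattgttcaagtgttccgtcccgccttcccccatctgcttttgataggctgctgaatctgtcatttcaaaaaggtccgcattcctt
In these stretches *Rab6a* held a CCAAT box, *Rab11a* a GC box, and *Rab6b* and *Rab11b* none of the letters searched. RefSeq windows of 300 bases, from 250 before the start to 50 after it, were found for 48 of the 59 Rab genes, 60 windows in all. A GC box occurred in 68.3% of them and in 35.7% of all 32851 windows, which also include noncoding genes. A CCAAT box occurred in 43.3% against 37.4%, an E-box in 10% against 7.15%, a FoxO motif in 3.33% against 3.65%, and a TATA box in 6.67% against 13.6%. A GC box was in 12 of 16 windows of Rab genes higher in L-LY29 and in 13 of 21 windows of those that were lower. Such matches are a description of letters and not of bound sites.

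In the late endosomal and lysosomal group, 1 of 7 tested genes was higher, 2 were lower and 4 did not pass, with a median of −0.026. *Rab29*, linked to the Golgi and to stressed lysosomes, was lower in L-LY29 by −0.99 (standard error 0.16, adjusted p = 0.00326), at 7.24, 7.11 and 7.38 against 8.43 and 8.03 in H-LY29. *Rab7*, the main Rab of late endosomes and lysosomes, gave results that depended on the probe set. Its brightest probe set read 11.86, 11.89 and 11.87 in L-LY29 and 12.75 and 12.87 in H-LY29, a difference of −0.93 (standard error 0.047, adjusted p = 8.66e-05). Its other probe set read 10.86, 10.81 and 10.81 in L-LY29 and 9.08 and 8.55 in H-LY29, a difference of 2.01 (adjusted p = 6.69e-04 over all probe sets). In both probe sets the doses did not overlap, and they lay in opposite order. *Rab7b* likewise had a probe set at 0.94 and another at −3.13. Their mean signals were so close that leaving out any of the 3 L-LY29 arrays made the second the brightest, at −3.01 to −3.25. *Rab9*, of transport from late endosomes to the Golgi, did not pass, at 0.12 (95% interval −0.0051 to 0.24), nor did *Rab9b* at 0.28, *Rab12* at −0.17 and *Rab24*, an autophagy-related Rab, at −0.026. The second probe set of *Rab24* was higher, at 0.69, and that of *Rab12* lower, at −0.36. *Rab12* was also called lower as the mean of its probe sets, at −0.27, and was at −0.29 without H-LY29 replicate 1.

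Of 12 tested Rabs of secretory and lysosome-related vesicles, 5 were higher in L-LY29, 3 lower and 4 short of the threshold, with a median of 0.047. *Rab10*, which carries vesicles to the plasma membrane, had the smallest standard error of this group. Its signals of 11.80, 11.79 and 11.77 in L-LY29 lay above 10.71 and 10.67 in H-LY29. This is a difference of 1.10 (standard error 0.040, adjusted p = 4.92e-05), a second probe set was higher by 1.32, and the remaining one was at −0.0015 and did not pass. *Rab13*, a Rab of tight junctions and vesicle delivery, was lower on its single probe set. It gave 8.29, 8.29 and 8.42 in L-LY29 and 10.12 and 9.87 in H-LY29, a difference of −1.66 (standard error 0.10, adjusted p = 1.38e-04), the largest towards H-LY29 among the tested Rab genes. *Rab8a*, of transport to the plasma membrane and the cilium, was at −0.40, and its second probe set was lower by −0.76. The *Rab8a* call ended with either scaling, at 0.0030 after quantile normalization, and without H-LY29 replicate 2 (adjusted p = 0.0643). Its paralog *Rab8b* did not pass, at 0.042 (95% interval −0.13 to 0.21).

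*Rab27b*, which docks secretory vesicles and exosome-bearing endosomes, was called higher in L-LY29, at a fitted difference of 2.61. Its signals were 5.79, 5.83 and 5.88 in L-LY29 and 3.27 and 3.17 in H-LY29. The H-LY29 signals lie within the poly-A range, as do those of *Rab38*, a Rab of pigment granules, at 3.46 and 3.17 against 5.96, 5.80 and 5.65 in L-LY29, so neither 2.61 nor the 2.49 of *Rab38* is read as a fold. These genes and *Rab25* had H-LY29 means of 3.22, 3.31 and 4.28, under the filter of 4.77, and were tested only because of their L-LY29 signals. Both rest on a probe set that the manufacturer marks as able to bind related transcripts, and the 3 other probe sets of *Rab27b* did not pass, at 0.21 to 0.48. *Rab32*, of the same vesicles as Rab38, was lower by −0.89, a call that ended after quantile normalization and without either H-LY29 array (adjusted p = 0.0883 to 0.163). Of the 7 pigment cell markers, 3 were bright enough to be tested, of which *Mitf* was lower and *Dct* and *Mlana* did not pass. Of the 4 dim ones, *Tyr* and *Tyrp1* had 2 of 3 probe sets higher each, *Rpe65* was higher and *Pmel* did not pass. *Rab3a*, a Rab of regulated exocytosis abundant at synapses, had a probe set of the same marked kind at 1.60 and another at −1.16. *Rab3d* was at 1.49, but spread between arrays, at 7.44, 6.74 and 7.13 in L-LY29 and 6.18 and 5.05 in H-LY29. Its call ended without L-LY29 replicate 1 or 3 or H-LY29 replicate 2 (adjusted p = 0.0626 to 0.111), and its other 3 probe sets did not pass. *Rab3b*, *Rab37* and *Rab27a* did not pass on their brightest probe sets, at 0.052, 0.0022 and 0.013. *Rab27a* read 7.00 and 5.66 on the H-LY29 arrays, which lay on either side of 6.20, 6.48 and 6.35 in L-LY29, and it passed the test at 0.68 (adjusted p = 0.0328) without H-LY29 replicate 1 and at −0.66 (adjusted p = 0.0353) without replicate 2. The second probe set of *Rab37* was higher, at 1.46.

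The 3 tested Rabs of other sites were each higher in L-LY29, where 27.1% of all genes were. This group also holds *Rab40b* and *Rab42*, too dim to be tested as genes. Over all probe sets of the group, 4 were higher, 2 lower and 4 did not pass. *Rab23*, a cilium-related regulator of Hedgehog signalling, gave 9.35, 9.29 and 9.16 in L-LY29 and 7.83 and 7.50 in H-LY29, a difference of 1.60 (standard error 0.13, adjusted p = 2.81e-04), and its other 2 probe sets were at 0.21 and 0.59 and did not pass. *Rab40c*, which serves a ubiquitin ligase, was higher by 0.59 on the brightest probe set and by 1.53 on the other. *Rab28*, of cilia, was at 0.64, with its second probe set lower at −0.57. The remaining 7 genes, *Rab17*, *Rab26*, *Rab39*, *Rab3c*, *Rab40b*, *Rab42* and *Rab44*, were too dim to be tested as genes. None of their 13 probe sets exceeded 5.25 on any array. In the fit over all probe sets, 4 of them were higher (*Rab17*, *Rab26* and *Rab3c*, with 2 for the last), 2 were lower (*Rab39* and *Rab42*) and 7 did not pass.

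Probe sets of the same Rab gene often differed in opposite directions. Over all 132 Rab probe sets, tested among all 34945 that name 1 gene, 45 were higher in L-LY29, 38 lower and 49 short of the threshold. This is 62.9% called, against 62.1% of all probe sets. The share higher was 34.1% against 28.9% of all probe sets, and the share lower was 28.8% against 33.2%. The doses did not overlap for 99 of the 132, where they did not overlap for 74.6% of all probe sets. Calls in both directions were found in 10 of the 23 Rab genes for which 2 or more probe sets were called, which is 43.5%, beside 45.3% of the 5272 such genes on the arrays. All called probe sets were higher for *Rab10*, *Rab36*, *Rab38*, *Rab3c*, *Rab40c*, *Rab6a* and *Rab6b*, and all were lower for *Rab11b*, *Rab1a*, *Rab30*, *Rab31*, *Rab34* and *Rab8a*. Of these 13 genes, *Rab36*, *Rab38*, *Rab3c*, *Rab40c* and *Rab30* include called probe sets whose lower dose lies in the poly-A range.

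*Rab2a*, which acts between the ER and the Golgi and on lysosome-bound vesicles, had 7 probe sets, of which 3 were higher, 3 lower and 1 short of the threshold. The brightest read 12.02 on every L-LY29 array and 11.84 and 11.74 in H-LY29. A further one read 8.96, 9.10 and 8.98 in L-LY29 and 12.38 and 12.68 in H-LY29, a difference of −3.52 (adjusted p = 1.13e-04). These readings of 1 gene ran from −3.52 to 1.42, and the mean of its probe sets was at −0.95. *Rab14*, also with 7 probe sets, had 3 higher and 3 lower, from −1.96 to 1.73. For *Rab18*, of the ER and lipid droplets, the brightest probe set was lower by −0.22 and the other higher by 3.29, at 10.17, 9.90 and 9.77 in L-LY29 and 6.65 and 6.66 in H-LY29. The differences of *Rab2b* ran from −1.26 to 1.87 and those of *Rab22a* from −2.95 to 0.52. Which transcripts or ends these probe sets read was not analysed here.

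**Figure D3:**
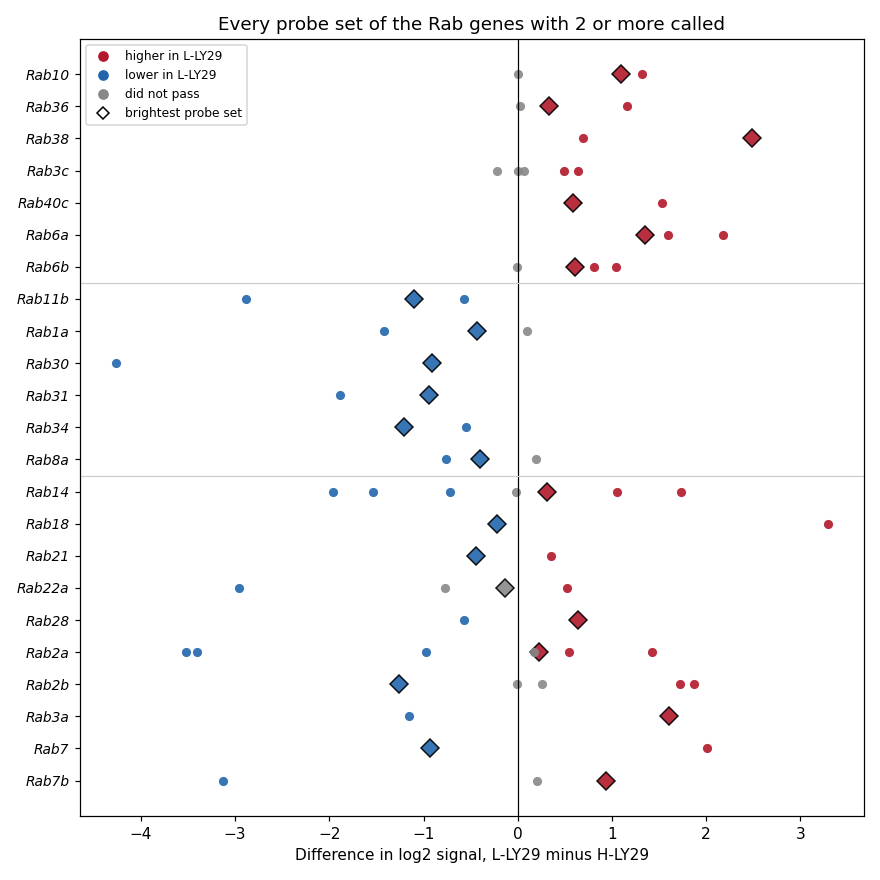
Difference in log2 signal, L-LY29 minus H-LY29, of every probe set (points; diamonds for the brightest) of the 23 Rab genes with at least 2 called probe sets, with calls in colour. The upper 7 genes have called probe sets only above 0, the next 6 only below 0, and the lower 10 on both sides, from −3.52 to 1.42 for *Rab2a* and from −0.22 to 3.29 for *Rab18*.

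Genes that load, silence and read Rab proteins went both ways, as did all genes, of which 27.1% were higher and 46.6% lower. Of 40 tested GEF genes, 14 were higher, 14 lower and 12 short of the threshold, with a median of −0.10. *Mon1b*, of the complex that activates Rab7, was at −4.65 with its other 2 probe sets not passing, *Dennd2a*, a GEF of Rab9, at −3.83, *Dennd5a*, a Rab6-binding GEF of Rab39, at 1.70, and *Dennd3*, a GEF of Rab12, at 1.88. Of 35 GAP genes, 11 were higher, 16 lower and 8 short of the threshold, with a median of −0.25. *Tbc1d2b* was at −2.73, *Rabgap1* at −1.62 with other probe sets higher, *Tbc1d12* at 1.31 and *Evi5* at −1.56, or at 0.055 and 0.18 without H-LY29 replicate 1 or 2, when its other probe set was the brightest. Of 43 effector genes, 13 were higher, 18 lower and 12 short of the threshold, with a median of −0.15. *Mical3*, a Rab8-binding oxidoreductase, was at −4.35 and *Ehbp1* at −2.03. *Osbpl1a* and *Rilpl2*, which bind Rab7 and phosphorylated Rab8 or Rab10, were at 1.06 and 1.42. After quantile normalization the medians of these 3 lists were 0.39, 0.28 and 0.23, and the numbers higher were 22, 17 and 20. The GAP median was −0.034 without H-LY29 replicate 1, 0.0069 without a filter and 0.49 over the 17 genes with a second probe set. The GEF median was −0.29 over the 16 such genes, and −0.15 to −0.050 with an array left out.

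Among the 7 tested genes of prenylation and extraction, 2 were higher, 4 lower and 1 short of the threshold, with a median of −0.39. *Rabggta*, the alpha subunit of Rab geranylgeranyl transferase, gave 7.59, 7.38 and 7.30 in L-LY29 and 8.56 and 8.49 in H-LY29, a difference of −1.10 (adjusted p = 6.35e-04), and *Rabggtb*, the beta subunit, was lower by −0.39. *Gdi2*, a GDI, was higher by 0.46 and on 5 of its 6 probe sets. That call ended after quantile normalization (0.083, adjusted p = 0.111). It also ended without any of the 3 L-LY29 arrays (0.13 to 0.14, adjusted p = 0.0600 to 0.0789), when another of its probe sets was the brightest. Each of these changes left 1 gene of the list higher. *Rabac1*, a Rab acceptor of the Golgi, was at 0.55 and *Rabif*, a chaperone of nucleotide-free Rabs, at −0.80, with another probe set higher. A further list held 10 genes of enzymes that make or turn over PI3P and of other members of their complexes. Of these, 8 were lower in L-LY29, 1 was higher and 1 did not pass. Their median was −0.66, beside 46.6% lower and a median of −0.26 over all genes. *Pik3c3*, the class III PI3K itself, gave 7.79, 7.73 and 7.78 in L-LY29 and 8.34 and 8.45 in H-LY29, a difference of −0.63 (standard error 0.078, adjusted p = 0.00124). *Pik3r4*, its regulatory subunit, was lower by −2.06, and *Pikfyve*, which converts PI3P, by −1.90, with another probe set higher. *Becn1*, of the same complex, was at −0.65, and at −0.019 as the mean of its probe sets. *Uvrag*, also of that complex, was higher by 0.95. With equal array medians 7 of the 10 were lower and 2 higher, and after quantile normalization 5 and 2. The 3 of these genes with a second probe set had 1 lower and 1 higher on it, with a median of 0.0029.

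**Figure D4:**
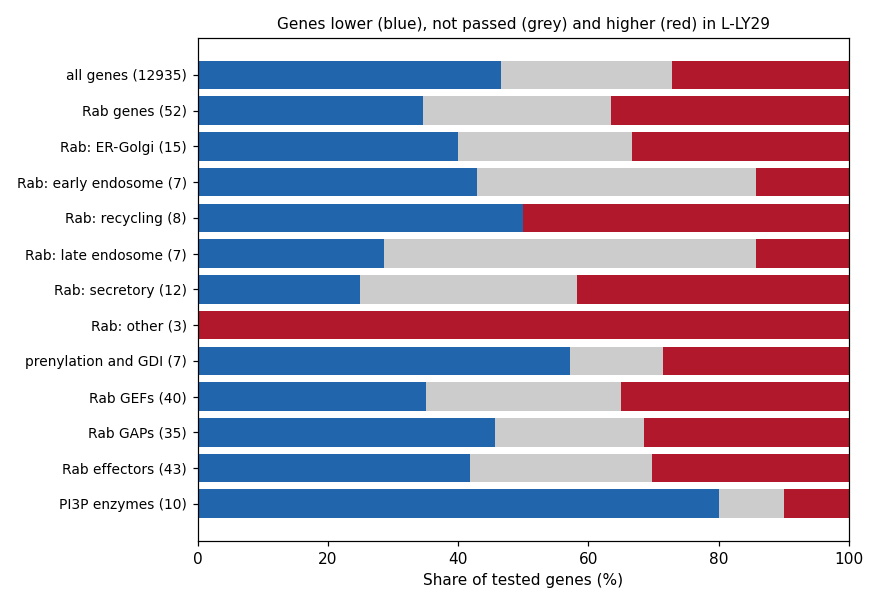
Share in percent of tested genes that were lower in L-LY29 (left, blue), did not pass (middle, grey) or were higher (right, red) for all genes, the Rab genes, their compartments and the lists of Rab regulators, with the number of tested genes in brackets. Rab genes divide into 34.6% lower and 36.5% higher, all genes into 46.6% and 27.1%. The list labelled PI3P enzymes also holds other members of their complexes, and 8 of its 10 genes are lower.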

How the data were processed

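RNA of cultured optic nerves was hybridised to Affymetrix GeneChip mouse genome arrays. Per the study's methods, the authors read the images in GeneChip Operating Software and normalised with the MAS-5 algorithm in GeneSpring. As deposited, the table holds log2 signals by the authors for 45101 probe sets on 5 arrays, and whether that algorithm made them was not settled here. They were used as deposited. Probe sets were named by the platform annotation. Control probe sets and the 932 that name several genes were left out of the tests. For genes, probe sets with a mean under the 40th percentile (4.77) were left out, and the brightest stood for its gene. Doses were compared over all 12935 genes, and separately over all 34945 probe sets without a filter, by limma 3.58.1 in R 4.3.3 (lmFit, eBayes with an intensity trend, two-sided, Benjamini-Hochberg). Tested on simulated data of 12935 genes, the fit recovered 12 of 70 changes of 0.5 log2 units, 39 of 58 changes of 1 and 67 of 72 changes of 2, with 5 unchanged genes called. In that simulation 12735 genes were unchanged, whereas 73.8% of all genes were called between the doses. The adjusted p depends on that share, so these rates do not carry over to the comparison of doses. Poly-A control probe sets averaged at most 4.14 in H-LY29, which was taken as the range without target.

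Each Rab was placed in 1 compartment from general knowledge. The members, the lists of regulators and markers, and the naming of every Rab gene and of the 4 genes of each regulator list with the smallest adjusted p were chosen with earlier results of these data known. Other genes were named beside these after their values were seen. Alternatives were other filters, a floor, 2 scalings, other choices of probe set, no trend, a replicate block and each array left out. They were extended to the regulator lists after seeing the data. The number of arrays limits the precision.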

Additional observations from a re-analysis of the deposited data

How the results depend on the processing

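Of 37 called Rab genes, 16 kept their direction and call under every alternative that tested them: *Rab11b*, *Rab13*, *Rab1a*, *Rab27b*, *Rab29*, *Rab30*, *Rab31*, *Rab33a*, *Rab33b*, *Rab34*, *Rab35*, *Rab38*, *Rab4b*, *Rab5a*, *Rab6a* and *Rab6b*. For *Rab13*, *Rab27b*, *Rab29*, *Rab33a*, *Rab33b*, *Rab35*, *Rab38*, *Rab4b* and *Rab5a*, only 1 probe set passed the filter. The second brightest probe set and the mean of probe sets therefore could not challenge these genes. *Rab30* was not tested with a stricter filter. *Rab27b* and *Rab38* were not tested with it either, nor without probe sets marked _x_at or _s_at, nor with any L-LY29 array left out. Both scalings left 30 of the 37. Signals near the poly-A range limit the sizes of dim genes. The causes of the shifts below were not tested, except where another probe set stands for the gene by construction.

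The median of the Rab genes was 0.29 after quantile normalization, 0.27 with equal array medians and 0.0074 with the second brightest probe set, and −0.016 to 0.11 with an array left out, the lowest without H-LY29 replicate 2. In the order quantile normalization, equal medians, second probe set, compartment medians were 0.22, 0.33 and 0.54 for the ER-Golgi (main 0.12), 0.10, 0.079 and −0.84 for early endosomes (−0.13), 0.23, 0.19 and 0.17 for late endosomes (−0.026), 0.088, 0.18 and −0.16 for recycling (−0.029), and 1.07, 0.85 and −0.18 for other sites (0.64). The secretory median (0.047) was 0.56 after quantile normalization and 0.49 without a filter. The mean of probe sets gave −0.045 for early endosomes, 0.12 for late endosomes and −0.25 for recycling. Without probe sets marked _x_at or _s_at the last 2 were 0.12 and −0.16. Recycling was at 0.16 without a filter and −0.37 with a 60th percentile filter. Leaving out an array gave −0.0083 to 0.17 for the ER-Golgi, −0.24 to −0.067 for early, −0.089 to 0.020 for recycling and −0.20 to 0.027 for late endosomes, 0.61 to 0.75 for other sites and 0.019 to 0.42 for secretory Rabs, the highest without H-LY29 replicate 1.

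With the second brightest probe set, which 30 genes have, 10 were higher and 11 lower. Equal array medians made 71 Rab probe sets higher, against 45. Leaving out an array gave 14 to 23 genes higher and 16 to 19 lower.

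Directions turned with another probe set. The second brightest gave −0.0015 for *Rab10*, −0.023 for *Rab14*, 3.29 for *Rab18*, 0.35 for *Rab21*, 0.69 for *Rab24*, −0.57 for *Rab28*, −1.16 for *Rab3a*, 2.01 for *Rab7* and −3.13 for *Rab7b*, and among regulators 0.0029 for *Becn1*, 0.12 for *Evi5*, 0.59 for *Rabgap1* and −0.13 for *Tbc1d12*. The mean of probe sets gave −0.16 for *Rab14*, 1.54 for *Rab18*, −0.95 for *Rab2a*, 0.52 for *Rab2b*, 0.54 for *Rab7* and −0.66 for *Rab7b*. Without probe sets marked _x_at or _s_at, *Rab14* was at −0.023, *Rab24* at 0.69, *Rab3a* at −1.16 and *Becn1* at 0.0029. Quantile normalization gave 0.41 for *Rab24*, −2.76 for *Rab7b* and 0.0030 for *Rab8a*. With an array left out, values ran from −3.25 to 1.36 for *Rab7b*, −0.66 to 0.68 for *Rab27a*, −0.067 to 0.18 for *Rab5c* and −1.61 to 0.18 for *Evi5*.

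Whether arrays that share a replicate number also share mice was not settled here. Deviations of same-numbered arrays from their dose means correlated at 0.0089 and 0.020. With 2 H-LY29 arrays the deviations at that dose mirror each other, so these correlations cannot decide it. With the replicate number as a block, 15 Rab genes were higher and 16 lower, and *Rab18*, *Rab2a*, *Rab36*, *Rab40c*, *Rab7b* and *Rab8a* lost their calls. The late endosomal median was then −0.084.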
